A study of Rattus norvegicus with 23 samples.

Results

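Male and female rats on the chow diet were compared by RNA sequencing of gastrocnemius muscle, in 6 Male Chow against 5 Female Chow rats (205, 213, 214, 228 and 229) of the 23 rats sequenced. All were Wistar rats that had been on their diet for 14 weeks from 4 weeks of age, and each gave 1 library. The females of the study were either ovariectomized at 12 weeks and given estradiol with their water or sham-operated, and the labels do not say which operation each female had. The comparison is therefore one between males and females of these kinds. The other 12 rats, 6 Male HFHS and 6 Female HFHS, received a high-fat, high-sucrose diet and served here as rats in which the chow differences could be looked at again. Total counts of the chow rats lay between 29337432 and 51305339 per library.

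Gastrocnemius is a mixed muscle with mostly fast glycolytic fibers, in which vessels, nerve, connective tissue and resident immune cells contribute a small share of the RNA. Sex acts on such a tissue through genes of the X and Y chromosomes, through androgens and estrogens and their nuclear receptors, and through the pattern of growth hormone release, which in rats also sets the male or female program of the liver. Genes of the Y chromosome and X genes that escape inactivation differ between the sexes in most tissues, whereas autosomal differences depend on the tissue and on hormones.

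The libraries were those of muscle, but they differed in liver transcripts. The 4 muscle fiber markers found (of 7) summed to 163842 to 218466 CPM (each count divided by the library total, scaled by TMM, and given per 1e6 counts) in Male Chow and 181017 to 221873 CPM in Female Chow. The mean log2 CPM of 130 hepatocyte genes in the 6 Male Chow rats was −1.45 with an SD of 0.41 and in the 5 Female Chow rats 1.36 with an SD of 0.33, with no overlap. The hepatocyte markers Alb, Apoa1, Ttr, Fga and Serpina1, all 5 of which had counts in each group, summed to 0.948 to 20.2 CPM in Male Chow and 174 to 353 CPM in Female Chow. Sex accounted for 94.5% of the variance of the hepatocyte level over the 11 chow rats, so sex and the amount of liver RNA cannot be told apart on chow. Among the 6 Female HFHS rats the level ranged from −1.84 to 1.23, and 202 (−1.84) and 209 (−1.78) were as low as the Male HFHS rats (−2.08 to −1.35). In bulk tissue, fewer cells of a type and less RNA per cell cannot be told apart.

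**Figure D1:**
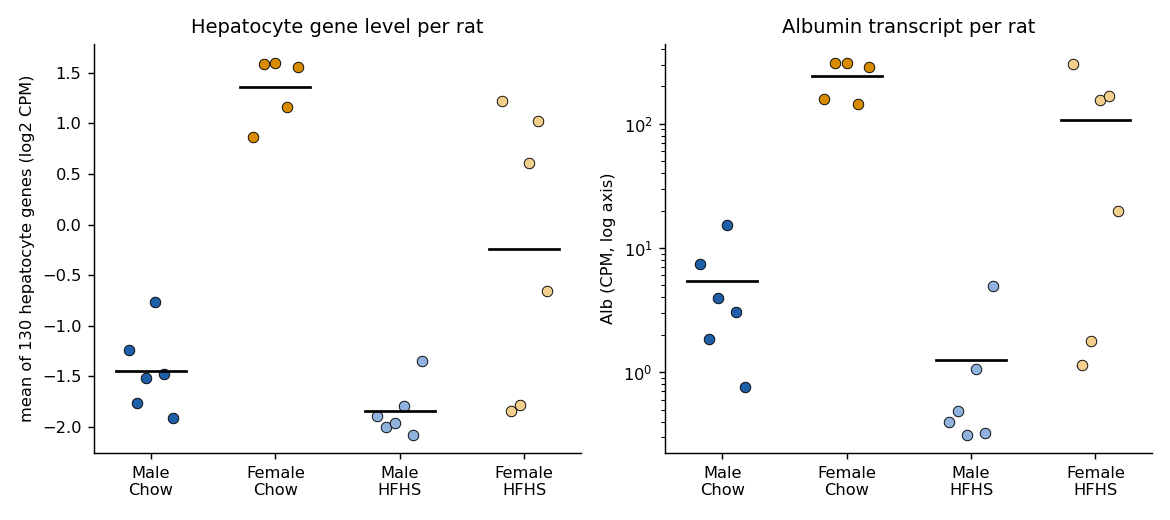
Mean level of 130 hepatocyte genes (left, log2 CPM) and level of Alb (right, CPM on a log axis) in each of the 23 rats, with a line at the mean of the group. All 5 Female Chow rats lie above all 6 Male Chow rats in both, while the Female HFHS rats spread from −1.84 to 1.23 in the mean level.

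Library 205 stood apart among the females. Its column code is Chow while its title gives HFHS, and it had the highest Myh2 (98827 CPM, against 72971 to 74038 in the other Female Chow rats), the lowest Ptprc (0.486 CPM, against 2.28 to 2.37) and the lowest hemoglobin Hba-a2 (17.4 CPM, against 55.6 to 84.0). The code was followed here. Rats 224 and 225 have the opposite conflict, Chow by title and HFHS by code. A published heat map of these libraries may head the male columns with the diets the other way round, which was not checked here. For every male the title and the column code give the same diet. The column codes were followed for the males too, and the male diet labels are uncertain only to the extent of that heat map.

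Of 13365 genes tested, 230 differed between Male Chow and Female Chow rats at an adjusted p under 0.05 (1.72%), 41 higher in males (0.307%) and 189 lower (1.41%). Adjusted p values use the Benjamini-Hochberg method for all tested genes and come from the quasi-likelihood test of edgeR in 1 model with the 4 group means unless another test is named, and a difference is the log2 of males minus females with its standard error. DESeq2 called 321 genes, 97 higher and 224 lower. The median difference over all genes tested was 0.0028 on the log2 scale. Of the 189 lower genes, 102 were members of the liver lists and 11 others lay on chromosome X. The other 76 were autosomal, and 41 of these followed the hepatocyte level across the 6 Female HFHS rats with a Pearson correlation of at least 0.8. These 41 were set apart with the liver transcripts by a limit chosen after the data were seen. The lowest correlation inside was 0.82 and the highest outside was 0.80 (Srd5a1). What remained were 14 genes of chromosome X outside the liver lists, 5 of chromosome Y, and 68 autosomal genes, 33 higher and 35 lower in males.

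Liver transcripts made up most of the lower genes. Alb, the main plasma protein of hepatocytes, was at 0.753 to 15.4 CPM in Male Chow (median 3.49) and at 157, 309, 311, 145 and 289 CPM in Female Chow rats 205, 213, 214, 228 and 229 (adjusted p = 0.00895). No male reached the lowest female. With limma-voom the adjusted p of Alb was 0.0561. Of 130 hepatocyte genes tested, 97 were lower in males and 0 higher, with a median difference of −3.90. C4bpa, which encodes a complement inhibitor made in liver, Serpinf2 (the plasmin inhibitor) and Itih3 had the smallest p among them, with differences of −6.82 ± 0.79, −2.62 ± 0.34 and −2.33 ± 0.30 (SE). For C4bpa, 5 of 6 males were at 0, so that its value depends on the prior count.

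Liver genes with a known sex bias were looked at by their summed counts. Cyp2c12, the female-specific steroid hydroxylase of rat liver, was at 0.886, 0.939, 1.79, 2.31 and 2.55 CPM in the Female Chow rats, and 0 counts were found in the 6 Male Chow rats against 346 in the females. A1bg, a plasma glycoprotein gene expressed in female rat liver, had 2 counts over the Male Chow rats and 1169 over the Female Chow rats. Cyp2c11, the male-specific hydroxylase, had 9 counts over the males, 6 of them in rat 115, and 1 over the females. Alb was higher in every female than in every male, and rat 115 had the highest Alb among the Male Chow rats. Where these counts came from was not tested. Cyp2c13, another male-type gene, had 6 counts over the males and 0 over the females. Slco1a1, an organic anion transporter that is male-biased in mouse liver, had 31 counts over the females and 0 over the males. Of 2 entries named Cyp4a2, a fatty acid hydroxylase gene, 1 had 77 counts over the females and 0 over the males, and the other had 1 and 4. Cyp2c11, Cyp2c13, Slco1a1 and Cyp4a2 were below the filter on low counts and were not tested. Of the 25 genes of this list 14 were found and 6 were tested, of which 5 were lower in males.

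Genes that followed the hepatocyte level without being on a liver list included other products of that organ. Among the 41 were Crp and Apcs (the pentraxins), Apoc2, Serpina3c and Serpina3m, Proz, Afm, Abcb11 (the bile salt export pump), Cyp2d5, Slc27a2, Creb3l3 and Clec4f, a lectin of liver macrophages. Abcc6 was at 0.162 to 0.687 CPM in Male Chow (median 0.379) and at 1.43, 2.67, 2.46, 1.63 and 1.84 CPM in Female Chow rats. Mgst1, a microsomal glutathione transferase, was at 2.07 to 2.75 CPM (median 2.46) and at 4.69, 7.86, 6.35, 5.07 and 7.46 CPM. The groups were apart for both genes. These 41 differences had a median size of 4.17 on the log2 scale, against 0.584 for the 68 autosomal genes that remained.

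Genes of the sex chromosomes checked the labels. All 5 tested genes of chromosome Y were called, and each of the males had more than each of the females. Kdm5d, a histone demethylase, had a mean of 13 CPM in the 6 Male Chow rats (SD 1.33), and its highest level among Female Chow rats was 0.0286 CPM. Eif2s3y and the helicase Ddx3 of the Y chromosome were at 35.7 ± 2.7 and 56.2 ± 8.45 CPM in Male Chow, and the highest levels in Female Chow rats, 0.171 and 0.143 CPM, were both in rat 205. The remaining Y genes, Rn60_Y_0010.2 and Rn60_Y_0001.1, are known only by an identifier and were at 0 in all 5 Female Chow rats. All 11 chow libraries matched their labelled sex by these genes.

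Their X-linked partners, which are known to escape inactivation in part, were lower in males by a similar amount each. Eif2s3 was at 51 to 60.6 CPM in Male Chow (median 58.6) and at 94.5, 91.8, 96.1, 96.0 and 89.3 CPM in Female Chow rats, a difference of −0.72 ± 0.06 (adjusted p = 3.85e-09). Ddx3x, Kdm5c and Kdm6a differed by −0.65 ± 0.07, −0.56 ± 0.06 and −0.74 ± 0.09 (adjusted p = 6.8e-06, 1.23e-06 and 4.04e-05). In each of the 4 genes every male was below every female. LOC680227 (rn6 X, 74304292 to 74345507) and Rn50_X_0752.3, which lies inside it on the opposite strand, were at 0.580 to 1.20 and 2.27 to 4.14 CPM in Female Chow rats, while 5 of 6 males were at 0 for each and the sixth had at most 0.0286 CPM. Whether counting used the strand is not given, so these genes cannot be told apart.

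Of the other 8 called genes of chromosome X, 3 were higher in males. Map7d2, a microtubule-binding protein gene, was at 2.40 to 4.86 CPM in Male Chow (median 4.28) and at 1.86, 2.2, 1.84, 1.60 and 2.23 CPM in Female Chow rats (1.06 ± 0.21, adjusted p = 0.00449). The higher genes Arhgef6 and Iqsec2 differed by only 0.37 and 0.26. Prr32 (−0.91), Pbdc1 (−0.55), Asb12 (−0.25) and Foxp3 (−0.60) were lower. Foxp3 defines regulatory T cells, but its gene overlaps Ccdc22 here. The calls of Foxp3, Asb12, Iqsec2 and Arhgef6 were lost without any 1 of 7, 6, 8 and 4 of the 11 rats, at adjusted p values of up to 0.0801, 0.122, 0.118 and 0.0878. The gap junction gene Gjb1 (−2.40 ± 0.47), which hepatocytes and Schwann cells use, followed the hepatocyte level in the Female HFHS rats (r = 0.87).

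The 35 lower autosomal genes were led by an estrogen target. Greb1, an estrogen receptor cofactor that estradiol induces (chromosome 6, 41932244 to 42002819 in rn6), was at 0.247 to 0.686 CPM in Male Chow (median 0.398) and at 1.94, 1.71, 1.45, 1.12 and 2.80 CPM in Female Chow rats 205, 213, 214, 228 and 229. No male reached the lowest female, and the difference was −2.09 ± 0.24 (adjusted p = 1.06e-05). With the hepatocyte level as a covariate its difference was −1.81, with an adjusted p of 0.135. In the liver-poor Female HFHS rats 202 and 209 Greb1 was at 2.30 and 1.88 CPM, within the range of the other Female HFHS rats (1.99 to 3.30) or just below it, and above the highest Male HFHS rat (0.477). Srd5a1, which makes dihydrotestosterone from testosterone, was at 1.09 to 1.76 CPM in Male Chow (median 1.38) and at 2.83, 4.12, 3.43, 3.44 and 3.32 CPM in Female Chow rats (−1.30 ± 0.19, adjusted p = 0.000267). It lay just below the correlation limit, and of the liver-poor rats 202 (1.42 CPM) was within the range of the Male HFHS rats and 209 (2.28 CPM) above it.

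Apobec2, a cytidine deaminase family member of muscle fibers (chromosome 9, 14529218 to 14542731), was lower in males at a high level. It was at 339 to 400 CPM in Male Chow (median 376) and at 459, 667, 507, 546 and 677 CPM in Female Chow rats. All males were below all females, by −0.62 ± 0.09 (adjusted p = 0.000349). Rats 202 and 209 had 535 and 524 CPM, against 328 to 396 CPM in Male HFHS rats. Npc2, which carries cholesterol out of lysosomes, was at 34.9 to 42.3 CPM in Male Chow (median 36.8) and at 47.1, 51.8, 48.3, 48.0 and 60.2 CPM in Female Chow rats (−0.44 ± 0.07, adjusted p = 0.00103). Rats 202 and 209 had 49.4 and 41.3 CPM, also above the Male HFHS rats (up to 40.3). Acyp2 (muscle acylphosphatase, −0.39), Acss1 (mitochondrial acetyl-CoA synthetase, −0.59) and Atp6v1g1 (a proton pump subunit, −0.28) were lower as well, and each of these 3 calls was lost without any 1 of 6 or 7 of the 11 chow rats, at an adjusted p of up to 0.193.

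Sod3, the extracellular superoxide dismutase, was at 64.1 to 90.6 CPM in Male Chow (median 76.6) and at 149, 109, 132, 100 and 116 CPM in Female Chow rats (−0.68 ± 0.14, adjusted p = 0.00758, and 0.11 with the diets of the titles), with no overlap. Col7a1, the collagen of anchoring fibrils, was at 3.21 to 4.55 CPM (median 4.04) and at 10.5, 6.38, 8.84, 8.2 and 7.44 CPM (−1.04 ± 0.22, adjusted p = 0.00807). It was the only called member of the collagen family, and it was not on the matrix list. Adamtsl2, a microfibril-associated protein gene, overlapped between the groups, at 2.27 to 6.15 CPM (median 3.27) and at 8.06, 8.2, 5.80, 6.26 and 13.6 CPM (−1.23 ± 0.22, adjusted p = 0.00245). Sdc2 (syndecan 2) was at 23.3 to 26.4 CPM and at 29.5, 34.6, 31.1, 30.7 and 33.1 CPM (−0.36 ± 0.08, adjusted p = 0.00983, and 0.061 without rat 213). It was the only autosomal gene of the 68 still called with the hepatocyte level as a covariate (adjusted p = 0.00838). Tspan8 (−0.58), Lpin3 (a phosphatidate phosphatase, −0.48), Maged2 (−0.42), Zfyve28 (−1.22) and Pdzd7 (−0.84) were also lower. With the diets of the titles the calls of Maged2, Zfyve28 and Pdzd7 were lost (adjusted p = 0.109, 0.0903 and 0.159). With the chow rats alone those of Zfyve28, Pdzd7 and Adamtsl2 were lost (0.0982, 0.0507 and 0.0666).

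Igf2, an insulin-like growth factor, was at 33.3 to 47.9 CPM in Male Chow (median 44.4) and at 78.0, 105, 52.4, 85.0 and 62.9 CPM in Female Chow rats. Every male was below every female, by −0.84 ± 0.18 (adjusted p = 0.0109, and 0.0666 without rat 213). In the HFHS rats the difference was −0.95 ± 0.17 (adjusted p = 0.00433), with 79.2 and 108 CPM in rats 202 and 209. Gadd45a, a stress and denervation gene, was at 5.17 to 12.3 CPM and at 20.7, 13.5, 11.9, 13.5 and 16.5 CPM (−0.85 ± 0.22, adjusted p = 0.048), and Tppp3, a tubulin-binding protein gene that overlaps Rn60_19_0375.4, differed by −0.80 ± 0.18 (adjusted p = 0.02). The Gadd45a call was lost without any 1 of 8 rats (205, 213, 228, 229, 112, 114, 116 or 119), and that of Tppp3 without 213, 229, 116 or 119, at an adjusted p of up to 0.13 and 0.0959.

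The other lower genes included several of low level. Slc22a7 (0 in all 6 males), Cpb2, Abcc2, RGD1309350, LOC103691744, Pemt and Etnk2 were at most at 2.01 CPM in every chow rat. Slc22a7, Cpb2 and Abcc2 are known as liver genes, and their correlations with the hepatocyte level were 0.74, 0.76 and 0.76, below the limit. Trmt112, which overlaps Esrra, Lrp11, Phf7, Ggta1, Wif1, Tspan12, Ddo and RGD1561916 differed by −0.27 to −0.97. Lmod1 is given with the vessel genes. Of the 35 lower genes, 16 were called without each of the 11 chow rats in turn and 19 were not.

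The 33 genes higher in males differed by 0.25 to 1.93, with a median of 0.48. RGD1304963, a gene with no name in the table (chromosome 6, 23337571 to 23346173), had the smallest p. It was at 9.12 to 29.5 CPM in Male Chow (median 18.4) and at 8.11, 4.95, 5.92, 5.78 and 4.20 CPM in Female Chow rats. Its lowest male was just above its highest female, and the difference was 1.69 ± 0.24 (adjusted p = 0.000289). Bcl6, a transcriptional repressor of germinal center B cells that is also male-biased in rodent liver, was at 76.7 to 137 CPM (median 88.5) and at 49.4, 60.1, 61.1, 51.9 and 64.0 CPM (0.80 ± 0.16, adjusted p = 0.00591). The groups did not overlap, although with the diets of the titles the adjusted p was 0.114. Ppp1r13b, which encodes the p53-binding protein ASPP1 and overlaps Zfyve21, was at 18.4 to 23.6 CPM (median 22.0) and at 15.9, 14, 17.6, 16.4 and 13 CPM (0.48 ± 0.08, adjusted p = 0.00167).

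Kcnq5, a voltage-gated potassium channel of nerve and muscle, was at 21.3 to 52.6 CPM in Male Chow (median 37.3) and at 15.3, 9.37, 18.4, 21.9 and 22.8 CPM in Female Chow rats (1.15 ± 0.24, adjusted p = 0.00917). With the diets of the titles and with the chow rats alone its adjusted p was 0.103 and 0.092. The lowest male, 111, lay within the female range, and the other 5 were above it. Sh3rf2, a ubiquitin ligase of the POSH family, was at 6.09 to 14.6 CPM (median 10.9) and at 4.20, 5.17, 4.88, 4.15 and 3.69 CPM (1.27 ± 0.27, adjusted p = 0.0101). Plcb4, a phospholipase C, was at 26.5 to 31.3 CPM (median 27.5) and at 19.6, 25.7, 21.6, 21.3 and 19.6 CPM (0.38 ± 0.07, adjusted p = 0.00332). Sh3rf2 and Plcb4 did not overlap between the sexes. The proline transporter gene Slc6a7 (1.08 ± 0.23, adjusted p = 0.0898 with the diets of the titles) and Fam131c (1.93 ± 0.41) were low in both sexes, at 1.28 and 1.13 CPM on average in Male Chow against 0.601 and 0.298 CPM in Female Chow. Pkdcc (a secreted tyrosine kinase, 0.46), Osbpl2 (0.32), St3gal2 (a sialyltransferase that overlaps Ddx19a, 0.43), Mark1 (0.51), Fndc3b (0.48) and AC120807.1 (0.70) were also called without each rat in turn. With the chow rats alone the calls of Osbpl2, Mark1 and Pkdcc were lost (adjusted p = 0.0816, 0.105 and 0.0686), and with the diets of the titles those of Mark1 and Fndc3b (0.0774 and 0.116). Osbpl2 was also lost without 205, 224 and 225 and with the male diets exchanged.

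Genes of the contractile apparatus and the mitochondrion were among the higher ones. Mybpc1, slow myosin binding protein C, was at 4328 to 7792 CPM (median 6771) and at 3582, 4096, 5050, 5513 and 4065 CPM (0.52 ± 0.13, adjusted p = 0.0331). The groups overlapped, and the call was lost without 205, 213, 229, 112, 114, 116 or 119 (adjusted p up to 0.118). Immt, a protein of the inner mitochondrial membrane (0.25), Slmap of the sarcolemma (0.30), Parvb, which binds integrin-linked kinase (0.38), and Ctnna3, alpha-T-catenin (0.71), were higher too. All 4 calls were lost without rat 213, and those of Immt, Slmap and Parvb also without each of several others, at adjusted p values of up to 0.116, 0.127, 0.104 and 0.0579 in the order named.

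The higher genes also included Scmh1, Rnf122, Tnks, Snph, Slc41a1, Ralgps1, Ccdc157, Pitpnm1, N4bp2, Helz, Sfmbt1, Aldh1a2 and Rgs5, with differences of 0.27 to 1.02. Aldh1a2, which makes retinoic acid, was at 8.43 to 9.85 CPM in Male Chow and at 1.74, 5.23, 6.69, 5.2 and 3.81 CPM in Female Chow rats. Its groups did not overlap, but its adjusted p of 0.0496 rose above the threshold when any 1 of 10 of the 11 rats was left out (up to 0.157), rat 214 being the exception. Of the 33 higher genes, 15 were called without each rat in turn. Of the 68 genes, 40 had no overlap between Male Chow and Female Chow, 19 higher and 21 lower, where 2.17% of all genes tested had none in either direction. The 68 were called on these same rats, so a larger share among them follows from the selection and adds no evidence.

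**Figure D2:**
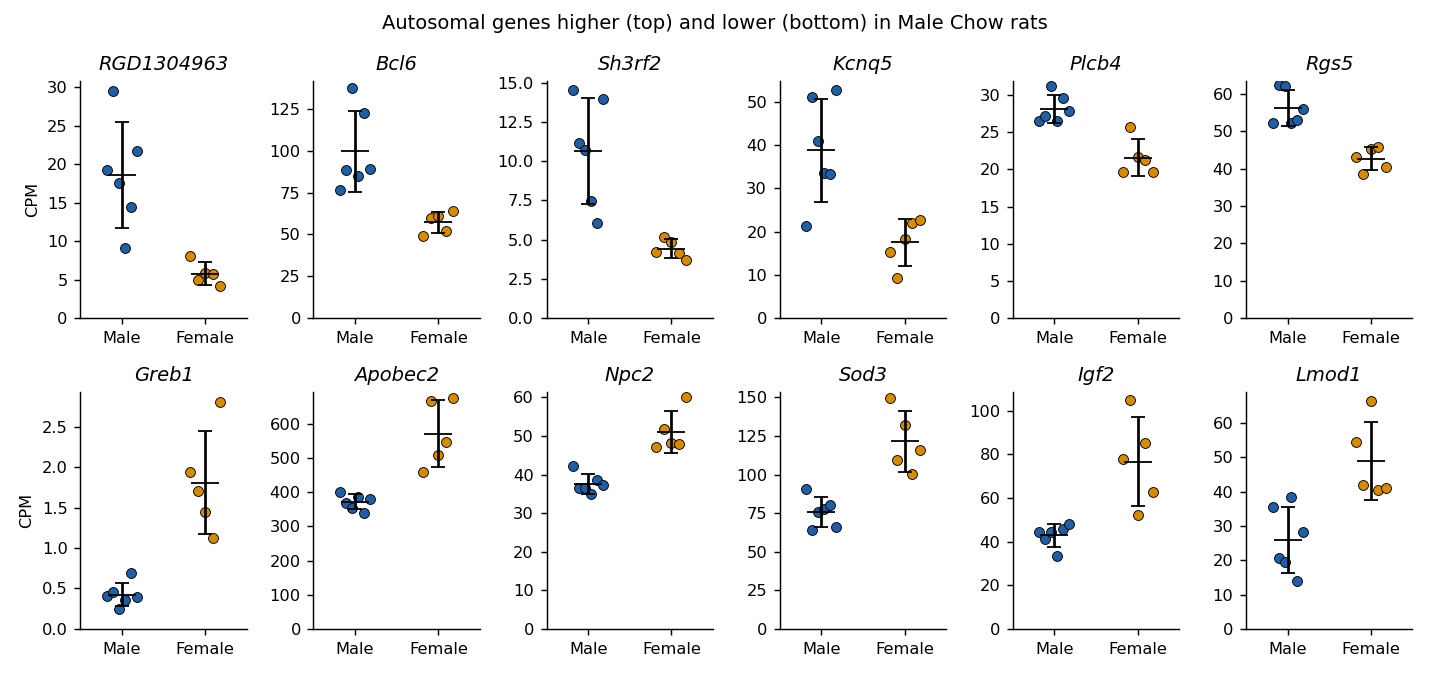
Levels of 12 autosomal genes in CPM (axes from 0) in 6 Male Chow and 5 Female Chow rats, with mean and SD. The top row shows genes higher in males and the bottom row genes lower in males, and of these 12 the groups overlap in Kcnq5 alone.

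How far the 68 genes depended on single libraries was marked. Leaving out rat 114 gave 44 such genes and leaving out rat 111 gave 103. The 11 chow rats fitted alone gave 39, the titles as diets 93, and DESeq2 153. With the male diets exchanged, that is with the 6 Male HFHS rats set against the Female Chow rats, the number was 648. With the hepatocyte level as a covariate 2 were called, of which Sdc2 was among the 68. The median standard error over all genes rose from 0.121 to 0.209 with this covariate, 94.5% of whose variance went with sex. The differences of Apobec2, Igf2, Rgs5 and Npc2 were then −0.71, −1.16, 0.64 and −0.37, and their calls were lost. Those of Srd5a1, Sod3, Lmod1 and Slmap shrank to −0.57, −0.37, −0.41 and 0.12, and 2 of the 68 changed sign.

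The promoters of muscle genes among the 68 are shown for Apobec2 and Mybpc1, an abundant muscle gene of each direction. The RefSeq promoters (GRCr8, 250 bases before to 50 after the start) are printed with the letters CAGCTG, an E-box that myogenic factors bind, in capitals.
Apobec2, chr9:20062311-20062610, plus strand: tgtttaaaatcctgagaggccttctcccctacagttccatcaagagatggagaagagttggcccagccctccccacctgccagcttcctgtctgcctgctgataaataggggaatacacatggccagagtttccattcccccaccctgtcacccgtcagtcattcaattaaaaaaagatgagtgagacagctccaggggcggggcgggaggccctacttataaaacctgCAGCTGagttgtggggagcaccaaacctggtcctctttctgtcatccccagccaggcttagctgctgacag
Mybpc1, chr7:24903324-24903623, minus strand: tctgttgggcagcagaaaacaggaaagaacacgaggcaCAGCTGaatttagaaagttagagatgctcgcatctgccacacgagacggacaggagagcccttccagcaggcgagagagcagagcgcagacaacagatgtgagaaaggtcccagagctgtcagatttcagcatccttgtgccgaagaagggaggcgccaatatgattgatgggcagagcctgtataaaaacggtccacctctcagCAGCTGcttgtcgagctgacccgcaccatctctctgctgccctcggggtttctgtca
The motif, which reads the same on both strands, stands in 15.1% of all 33469 rat promoters, in 5 of 29 promoters of 24 higher genes with an entry, and in 9 of 26 promoters of 24 lower genes. The estrogen response element GGTCANNNTGACC, searched on both strands, was in 0 of the promoters of either set, among which Greb1 had no entry, and in 0.0239% of all. A match or its absence in this window is a description of the letters only.

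Muscle fiber genes gave few calls. Over all genes tested 1597 had an unadjusted p under 0.05 (11.9%), against which the counts at that level in the lists can be read. Of 15 fast sarcomere genes 0 were called by edgeR, DESeq2 or limma-voom, 1 had an unadjusted p under 0.05 and 13 lay below 0 (median −0.10), and of 15 slow sarcomere genes Mybpc1 alone was called (median 0.05). Tnnc2, fast troponin C, was at 8443 to 13430 CPM in Male Chow and at 13919, 14799, 10383, 10987 and 13980 CPM in Female Chow rats (−0.23 ± 0.11, adjusted p = 0.407). The Myh2 entry spans the fast myosin heavy chain cluster of chromosome 10 (53713938 to 53918524), so the isoforms could not be followed. Of 20 calcium handling genes, 19 atrophy genes, 21 myogenic genes and 17 genes of the myostatin pathway 0 were called, with medians of −0.02, −0.05, 0.01 and 0.03, and 0 also by DESeq2 and limma-voom, while 2, 1, 3 and 4 of their members had an unadjusted p under 0.05. Mstn, which restrains muscle growth, was at 4.55 to 15.8 CPM (median 8.43) and at 32.1, 15.6, 14.1, 11.1 and 10.9 CPM (−0.88 ± 0.33, adjusted p = 0.272), where the highest value is that of rat 205. Myog differed by −0.45 ± 0.16 (adjusted p = 0.212).

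Genes of metabolism were described by list. Of 18 genes of the tricarboxylic acid cycle 16 were above 0 (median 0.10) and 6 had an unadjusted p under 0.05, all higher. Of the 18, 1 was called by edgeR, 3 by DESeq2, 2 by limma-voom and 0 with the chow rats alone. The cycle enzymes Idh3g, Sdha and Cs differed by 0.19 ± 0.06, 0.21 ± 0.06 and 0.18 ± 0.07 (adjusted p = 0.139, 0.141 and 0.298). DESeq2 and limma-voom gave adjusted p values of 0.032 and 0.0465 for Idh3g, and 0.0389 and 0.138 for Sdha. Of 31 fatty acid oxidation genes 26 were above 0 (median 0.09), 3 had an unadjusted p under 0.05 and 0 were called, with Acadm at 0.24 ± 0.10 (adjusted p = 0.341). Of 71 nuclear respiratory chain genes 50 were above 0 (median 0.05), 4 had an unadjusted p under 0.05 and 0 were called. Of 26 glycolysis and glycogen genes 23 were below 0 (median −0.17), 3 had an unadjusted p under 0.05 and 0 were called, with Eno3, the muscle enolase, at −0.32 ± 0.12 (adjusted p = 0.248). In the lists of fatty acid oxidation, respiratory chain and glycolysis genes DESeq2 and limma-voom called 0 as well. Of 74 cytosolic ribosomal protein genes 70 were below 0 (median −0.13), and of 33 proteasome genes 32 (median −0.07), with 0 called in both by edgeR, DESeq2 and limma-voom and 30 and 1 at an unadjusted p under 0.05. With the male diets exchanged 29 ribosomal and 7 proteasome genes were called lower, and 9 fatty acid oxidation genes higher. Rplp1 was at 431 to 469 CPM in Male Chow and at 516, 618, 457, 461 and 618 CPM in Female Chow rats (adjusted p = 0.129). Genes of 1 list are not independent of each other, and no test was made on the counts of signs.

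Estrogen receptor and response genes gave 1 call. Esr1, the estrogen receptor alpha, was at 3.13 to 4.59 CPM in Male Chow and at 4.29, 5.44, 4.25, 4.69 and 6.73 CPM in Female Chow rats (−0.38 ± 0.23, adjusted p = 0.544). Among 17 estrogen response genes 13 were below 0 in males (median −0.19). Of the 17, 5 had an unadjusted p under 0.05, all lower, and Greb1 was the only one called. Car12, another estrogen-induced gene, reached 11.8 CPM in rat 205 and 0.747 to 4.49 CPM in the other Female Chow rats (0.110 to 2.36 CPM in Male Chow, adjusted p = 0.264).

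Among vessel genes 2 were called, in opposite directions. Rgs5, a regulator of G-protein signaling that marks pericytes (chromosome 13, 87966758 to 88003035), was at 52.1 to 62.2 CPM in Male Chow (median 54.4) and at 43.2, 38.7, 45.3, 45.8 and 40.3 CPM in Female Chow rats. No female reached the lowest male, and the difference was 0.40 ± 0.09 (adjusted p = 0.0136, and 0.0539 without rat 213). In the HFHS rats it was 0.51 ± 0.09 (adjusted p = 0.0021), and rats 202 and 209 were at 39.1 and 31.1 CPM. Lmod1, a leiomodin of smooth muscle, went the other way, at 13.9 to 38.3 CPM (median 24.4) and at 54.4, 41.9, 66.4, 40.4 and 41.1 CPM (−0.91 ± 0.22, adjusted p = 0.0287). Its call was lost without 205, 214, 112 or 114 (adjusted p up to 0.0903). Of the 22 pericyte and smooth muscle genes tested, 18 lay above 0 (median 0.11) and these were the only calls by edgeR.

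Of 28 endothelial genes tested 24 were above 0 and 0 were called by edgeR, DESeq2 or limma-voom, with a median of 0.18 and 8 at an unadjusted p under 0.05, 7 of them higher. The 4 endothelial markers found (of 5) summed to 204 to 255 CPM in Male Chow and 178 to 216 CPM in Female Chow. Cdh5, VE-cadherin, was at 96.1 to 122 CPM and at 85.5, 107, 92.7, 93.4 and 83.4 CPM (0.16 ± 0.08, adjusted p = 0.415). Erg and Vwf differed by 0.29 ± 0.10 and 0.28 ± 0.11 (adjusted p = 0.224 and 0.252). Of 18 arterial, venous and lymphatic endothelial genes 9 were above and 9 below 0 (median −0.02), with 1 at an unadjusted p under 0.05 and 0 called by the same tests. Of 28 vessel growth and hypoxia genes 0 were called by the same tests (median 0.14), with 7 at an unadjusted p under 0.05. Vegfb and Nrp1 differed by 0.33 ± 0.10 and 0.28 ± 0.10 (adjusted p = 0.14 and 0.204), and Apln, an endothelial tip cell ligand, by 0.57 ± 0.21 (adjusted p = 0.231). Of 43 collagen and matrix genes 36 were above 0 (median 0.15), 5 had an unadjusted p under 0.05 and 0 were called by the same tests, with Timp3 at 0.37 ± 0.12 (adjusted p = 0.155). With the male diets exchanged 10 endothelial, 3 arterial, venous and lymphatic, 8 vessel growth and 15 collagen and matrix genes were called higher. In the HFHS rats Cdh5, Erg, Nrp1 and Apln were called higher in males at 0.36, 0.45, 0.36 and 1.28 (adjusted p = 0.00679, 0.0114, 0.0241 and 0.00126), whereas Vwf, Vegfb and Timp3 were at 0.20, 0.31 and 0.13 (adjusted p = 0.262, 0.0697 and 0.59).

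No member of the immune cell gene lists was called by edgeR. Clec4f and the chemokine gene Ccl9, which are outside these lists, were called lower and set apart with the liver. Of 20 macrophage and monocyte genes 18 were below 0 in males (median −0.18), with 0 called by edgeR, DESeq2 or limma-voom and 0 at an unadjusted p under 0.05. Cd68 was at 2.07 to 2.36 CPM in Male Chow and at 1.34, 3.16, 2.85, 3.16 and 2.80 CPM in Female Chow rats, where rat 205 was below every male and the other females above (adjusted p = 0.574). Ptprc, the pan-leukocyte gene, was at 1.59 to 2.37 CPM and at 0.486 to 2.37 CPM (0.05 ± 0.26, adjusted p = 0.966), and without rat 205 its difference was −0.19. Of 11 mast cell genes 8 were below 0 with a median of −0.50, 5 at an unadjusted p under 0.05, 0 called by edgeR and limma-voom and 1 by DESeq2. The tryptase gene Tpsab1 was at 0.508 to 1.83 CPM (median 1.24) and at 1.80, 2.33, 2.29, 2.99 and 2.33 CPM (−0.94 ± 0.27, adjusted p = 0.0938), overlapping only at its edge. Tpsb2 and the chymase gene Cma1 were at −0.83 ± 0.26 and −0.74 ± 0.24 (adjusted p = 0.148 and 0.15). Without rat 205, or without 205, 224 and 225, 2 mast cell genes were called. In the HFHS rats Tpsab1 and Tpsb2 were called lower in males at −1.21 and −0.89 (adjusted p = 0.00971 and 0.0449), and Cma1 was at −0.55 (adjusted p = 0.165).

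Of 36 interferon response genes 29 were below 0 on chow (median −0.17) and 0 were called by edgeR, DESeq2 or limma-voom (1 at an unadjusted p under 0.05), whereas their median in the HFHS rats was 0.54. Of 20 genes of the major histocompatibility complex and antigen processing (median −0.06), 21 genes of chemokines, cytokines and NF-kB (median 0.08), 5 lymphocyte genes (median 0.16) and 4 neutrophil genes (median 0.34) 0 were called by edgeR, with 1, 3, 0 and 0 at an unadjusted p under 0.05. DESeq2 called 1 of the chemokine, cytokine and NF-kB genes and 0 of the others, and limma-voom 0 of all. Nfkb1 had the smallest p among them, at 31.2 to 39.0 CPM and at 28.5, 27.6, 33.6, 27.0 and 30.9 CPM (0.23 ± 0.06, adjusted p = 0.0796). Of 23 lymphocyte and 13 neutrophil genes found, most were below the filter on low counts, so that those cells were followed by only 5 and 4 genes.

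Red blood cell genes did not pass the test of edgeR. All 6 genes tested were above 0 in males, with a median of 1.35 and 5 at an unadjusted p under 0.05, and 0 were called by edgeR or limma-voom and 1 by DESeq2. Hba-a2, a hemoglobin alpha gene, was at 81.2 to 388 CPM in Male Chow (median 99.6) and at 17.4, 58.6, 80.8, 84.0 and 55.6 CPM in Female Chow rats (1.35 ± 0.40, adjusted p = 0.124). Rat 111 held the highest value and rat 205 the lowest. Hbb and Alas2 differed by 1.18 ± 0.43 and 1.55 ± 0.52 (adjusted p = 0.237 and 0.187). In the HFHS rats the list had a median of 0.07. Of 16 adipocyte genes 14 were below 0 (median −0.25), of 16 Schwann cell genes 13 above (median 0.26) and of 18 fibroblast genes 11 below (median −0.06), with 0 called in each by edgeR and 3, 1 and 2 at an unadjusted p under 0.05. DESeq2 called 2 adipocyte genes and 0 of the others, and limma-voom 0 in each. Without rat 205, whose Ptprc and Myh2 levels stood apart, 2 fibroblast genes and 1 adipocyte gene were called. Leaving out rat 228 or rat 119 also gave 1 adipocyte gene. The part of blood, fat, nerve or liver in the differences of other genes was not tested.

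**Figure D3:**
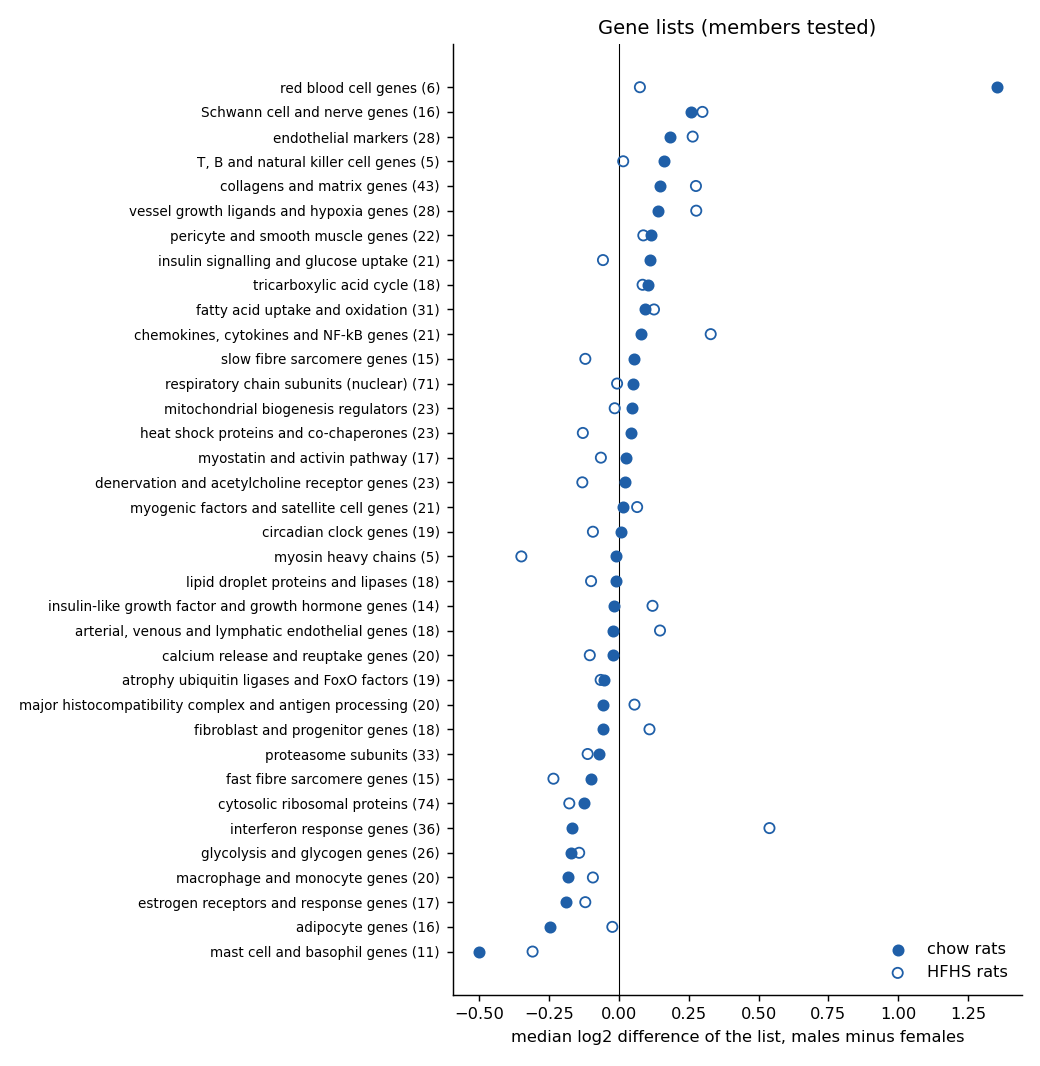
Median log2 difference, males minus females, of 36 gene lists in the chow rats (filled) and in the HFHS rats (open), with the number of members tested in parentheses. Most medians lie within 0.25 of 0 on chow, the red blood cell genes are at 1.35 and the mast cell genes at −0.50, and 0 to 2 members per list were called.

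The 12 HFHS rats are other animals than the chow rats, but both comparisons come from 1 model with a shared estimate of the spread. Of 13365 genes 645 differed by sex in them (4.83%). Of the 230 genes called on chow, 226 had the same sign there and 161 were called in the same direction, 15 higher and 146 lower in males. Over all genes tested 65.7% had the same sign. Of the 68 autosomal genes, 64 had the same sign and 27 were called again, 9 higher and 18 lower. The 9 higher genes were Plcb4, AC120807.1, Slc6a7, Fam131c, Scmh1, Rgs5, Slc41a1, Parvb and Pitpnm1, and among the 18 lower genes were Greb1, Apobec2, Npc2, Igf2, Lmod1, Tppp3, Acss1, Gadd45a, Adamtsl2 and Tspan8. Greb1 was at −2.52 ± 0.24 in the HFHS rats (adjusted p = 2.1e-07). RGD1304963 and Bcl6, which led the higher genes on chow, were at 0.72 ± 0.22 and 0.22 ± 0.15 (adjusted p = 0.0675 and 0.458). Fndc3b, N4bp2, Sfmbt1 and Ggta1 had the opposite sign, at −0.05, −0.13, −0.03 and 0.02. Of the 41 genes set apart with the liver 34 were called again, and of the 102 on the liver lists 85. The 41 were chosen by their levels in the Female HFHS rats, which are 1 side of the HFHS comparison. The shares of the 41 and of the 68 called again are thus not independent of that choice.

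**Figure D4:**
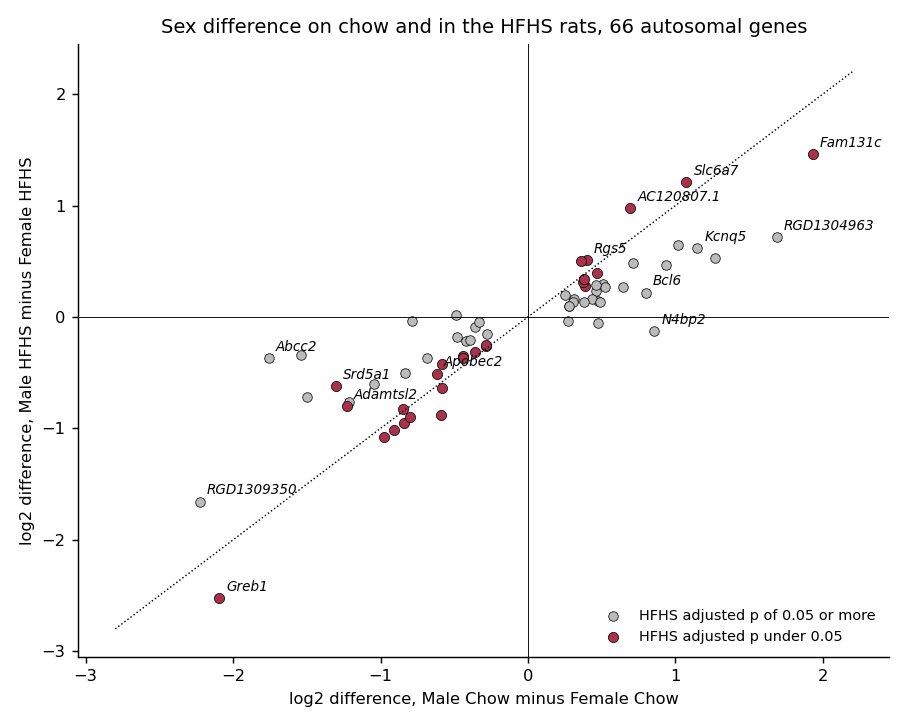
Log2 difference by sex in the HFHS rats (vertical) against that in the chow rats (horizontal) for 66 autosomal genes called on chow and not set apart with the liver, with a dotted line of equality. Slc22a7 and Cpb2, which lie beyond the axes, are left out, and 26 of the 66 were also called in the HFHS rats (red).

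Whether the sex difference itself differed between the diets was tested by the interaction of sex and diet. No gene passed (0 of 13365 in edgeR, with 652 at an unadjusted p under 0.05, 1 in DESeq2 and 0 in limma-voom), and the smallest adjusted p was 0.96. A call on chow that was absent in the HFHS rats is thus not shown to differ between the diets.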

How the data were processed

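RNA was sequenced from the gastrocnemius of 23 Wistar rats (poly-A selected, directional libraries, paired reads). Per the labels and methods, the authors used fastp for trimming and STAR 2.7.6a for alignment (rn6), and deposited whole-number counts per gene over exons, made in SeqMonk 1.48.1. Whether counting used the strand, and the annotation release, are not given in the sources used here. A count shared by overlapping genes therefore cannot be assigned. Library 205 is Chow by its column code and HFHS by its title, and 224 and 225 the reverse. The codes were used.

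Of 18919 entries, 16 without a gene name (6.57e-05 to 0.000294% of counts) were left out, and 0 sample columns were unused. The counts were fitted in R 4.3.3 with edgeR 4.0.16 (TMM, filterByExpr, robust quasi-likelihood test, 4 group means over the 23 rats). Benjamini-Hochberg adjustment ran over 13365 genes, with a threshold of 0.05. p-values measure the spread between rats. CPM values carry the TMM scaling, and log2 levels a prior count of 2. Total counts of the chow libraries were 29337432 to 51305339. The scripts were tested on simulated data.

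Liver transcripts were set apart by 2 liver lists and by a correlation of at least 0.8 with the hepatocyte level over the 6 Female HFHS rats. The correlation limit was applied only to genes lower in males, so no gene higher in males could be set apart by it. Members and gene lists were chosen with earlier results of these data known. The rule for named genes took up to 15 each way with the smallest p at 1 CPM or more, at most 4 of each list by smallest p, the genes that define a list, the sex chromosome checks and the leading liver genes. The other called autosomal genes were named after their values were seen. Alternatives were other scaling and filters (a mean count above 0.1, or 1 CPM in 5 rats), DESeq2 1.42.0, limma-voom 3.58.1 with quality weights, the chow rats alone, other diet labels, the hepatocyte level as a covariate, a replicate block, and each chow rat left out. Other correlation limits (0.7 and 0.9), and all alternatives for the 68 genes, were chosen after seeing the data. Values of some genes are not reported here.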

Additional observations from a re-analysis of the deposited data

Results flagged for a closer look

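Of 250 gene and group combinations tested, 26 had a highest or lowest rat far from the rest of its group, where chance gives about 1 in 20. No explanation was weighed.

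Rat 111 was the highest Male Chow rat for the blood genes Hba-a2 (388 CPM), Hbb (203 CPM) and Alas2 (5.11 CPM), and also for Akr1b7 (1.05 CPM), Pdzd7 (5.49 CPM) and Pemt (1.63 CPM). It was the lowest for Rnf122 (23.3 CPM). Rat 112 stood apart for Fam131c (2.29 CPM), rat 114 for Slc41a1 (109 CPM), Tspan12 (22.0 CPM) and Cdh5 (122 CPM), and rat 115 for Tppp3 (107 CPM). Single male values above 0 set rat 115 apart for Rn50_X_0752.3 (0.0275 CPM) and rat 116 for LOC680227 and C4bpa (0.0286 CPM each).

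Among Female Chow rats, 205 stood apart for Myh2 (98827 CPM), Mstn (32.1 CPM), Ddx3x (263 CPM), Cd68 (1.34 CPM) and Ptprc (0.486 CPM). Rat 213 stood apart for Immt (151 CPM), Helz (9.44 CPM), Cs (326 CPM) and Rn50_X_0752.3 (4.14 CPM), rat 214 for LOC680227 (0.580 CPM) and rat 228 for Ddo (7.24 CPM).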

How the results depend on the processing

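The number of genes differing by sex on chow was 230. It was 150 with a filter of 1 CPM in 5 rats, 851 with the male diets exchanged (336 higher and 515 lower), 12 with the hepatocyte level as a covariate, and 188 (without 114) to 261 (without 111) with each chow rat left out. DESeq2 gave 321, with 97 higher and 224 lower against 41 and 189. The 109 autosomal genes outside the liver lists became 198 with DESeq2, 72 with the chow rats alone, 703 with the male diets exchanged, 2 with the covariate, and 80 to 142 with a rat left out. The 68 genes not set apart became 153, 39, 648 and 2 under the same alternatives and 44 to 103 with a rat left out. They were 61 and 74 with correlation limits of 0.7 and 0.9. The interaction of sex and diet gave 1 gene with DESeq2, 5 with the diets of the titles, and 0 to 1 with a rat left out (1 without 229). The 161 chow calls found again in the HFHS rats became 94 with limma-voom, 11 with the covariate and 137 to 168 with a rat left out. Of the 68 genes, DESeq2 called 68, limma-voom 56, the chow rats alone 29 and the titles 38.

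The numbers of the titles were tried as a replicate block. Deviations of chow rats with the same number correlated at −0.182 to 0.0781, and those of other pairs at −0.291 to 0.349. The number of rat 205 came from an HFHS title. Whether the numbers pair the rats cannot be told from these values. With this replicate block 185, 88 and 55 genes were called, 44 of the last among the 68, and 0 by the interaction.

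Signs turned with the covariate for Cpb2 (1.11), Alb (1.18), LOC103691744 (0.0708) and Esr1 (0.34). With the diets of the titles Myh2 (0.0059) and Ptprc (−0.25) turned, and without 205, 224 and 225 Ptprc (−0.19). With a rat left out Ptprc ranged from −0.19 to 0.13. Of these only Cpb2, Alb and LOC103691744 had been called. Why these values moved was not tested.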
